A study of Sus scrofa with 8 samples.

Results

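Enteroendocrine cells are the scattered hormone-secreting cells of the gut lining, and this section describes their hormones and factors in pig tissue. The set listed 10 genes by symbol: the hormone precursors GCG, NTS, PYY, CCK and SST, the granule proteins CHGA and CHGB, the serotonin enzyme TPH1 and the transcription factors NEUROD1 and INSM1. Of these, 7 were matched through their pig Ensembl identifier to a row among the 31907 genes of the count files. PYY, TPH1 and INSM1 were not matched to a row and are not analysed here.

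The series holds 8 messenger RNA sequencing libraries of tissue from Guizhou minipigs aged 8 months, 2 in each of 4 groups. MN-Exp is mucosa of the experimental neobladder, MN-Ctrl is mucosa of the control neobladder, NP is normal peritoneum and MNB is mucosa of the normal bladder. In ileal neobladder surgery a loop of small intestine is fashioned into a substitute bladder, and per the study's title the mucosa was replaced with the animal's own peritoneum. The labels used here give no lining for the control reservoir, no time after surgery, and no word on whether replicates were different animals, so every test measured the spread between these samples, which may be technical.

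As background, each enteroendocrine cell makes a few peptide hormones, which are cut from longer precursors and stored with granins in dense-core granules until food, bile acids or other luminal signals release them. In the intestine these cells arise from crypt progenitors under a cascade of basic helix-loop-helix factors in which ATOH1 and NEUROG3 act before NEUROD1. Cells making proglucagon, peptide YY and neurotensin are known to be common in the distal small intestine, the region from which an ileal reservoir is made.

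Library totals ran from 7939291 to 11884868 counts. Levels are scaled CPM, counts per 1e6 after scaling between libraries by trimmed mean of M-values (TMM), whose factors were 1.15 and 1.09 in MN-Exp, 0.839 and 0.449 in MN-Ctrl, 1.24 and 1.21 in NP and 1.16 and 1.21 in MNB. A gene was called where its edgeR p, adjusted over the 16549 genes that passed a low-count filter, was under 0.05. A library with 0 counts of a gene could therefore hold up to 3 counts' worth, between 0.224 CPM in MNB replicate 2 and 0.562 CPM in MN-Ctrl replicate 2, for counting error only. The tissue labels were checked against defining markers. All 9 enterocyte and all 7 goblet cell markers with a row were called higher in MN-Ctrl than in MNB. Over all genes, 11.2% were called higher there. All 7 urothelium markers were called lower in MN-Ctrl than in MNB, where 1829 of the 16549 genes were. These 7 were also called higher in MN-Exp than in MN-Ctrl, where 10.4% of all genes were. In NP the mesothelium factor WT1 had 272 and 284 counts and BNC1 had 27 and 55 counts. Each other library had 0 or 1 count of either factor. All 9 enterocyte and 7 goblet cell markers were also called lower in MN-Exp than in MN-Ctrl, where 11.3% of all genes were. These cell types thus moved with the hormone genes described next, and their part in those differences was not tested. Some of these markers, FABP2, SI, SLC10A2 and APOA4 among them, passed the low-count filter through the MN-Ctrl libraries, where they were high. The counts of marker calls therefore describe these lists and are no separate support for a difference. Among the goblet cell markers, AGR2 lost its call in MN-Exp over MN-Ctrl on library totals alone, with the 2 groups alone and without MN-Exp replicate 1, MN-Exp replicate 2 or MN-Ctrl replicate 2 (adjusted p up to 0.294), and TFF3 with the 2 groups alone and without MN-Exp replicate 2 or MN-Ctrl replicate 2 (adjusted p up to 0.109). In MN-Ctrl over MNB AGR2 lost its call on library totals alone, with the 2 groups alone and without either MNB library, TFF3 without MN-Ctrl replicate 2 or either MNB library, and SPDEF without MNB replicate 2 (adjusted p up to 0.179 for AGR2, 0.106 for TFF3 and 0.063 for SPDEF). The mesothelium marker CALB2 was at 0 counts in every library, NP included.

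Transcripts of the enteroendocrine set were abundant in the control neobladder and close to the counting limit in the other 3 tissues. The 7 genes together had 8 and 7 counts in MN-Exp, 4296 and 6429 counts in MN-Ctrl, 23 and 10 counts in NP, and 5 and 12 counts in MNB. In a bulk sample, fewer hormone cells and less hormone RNA per cell cannot be told apart.

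**Figure D1:**
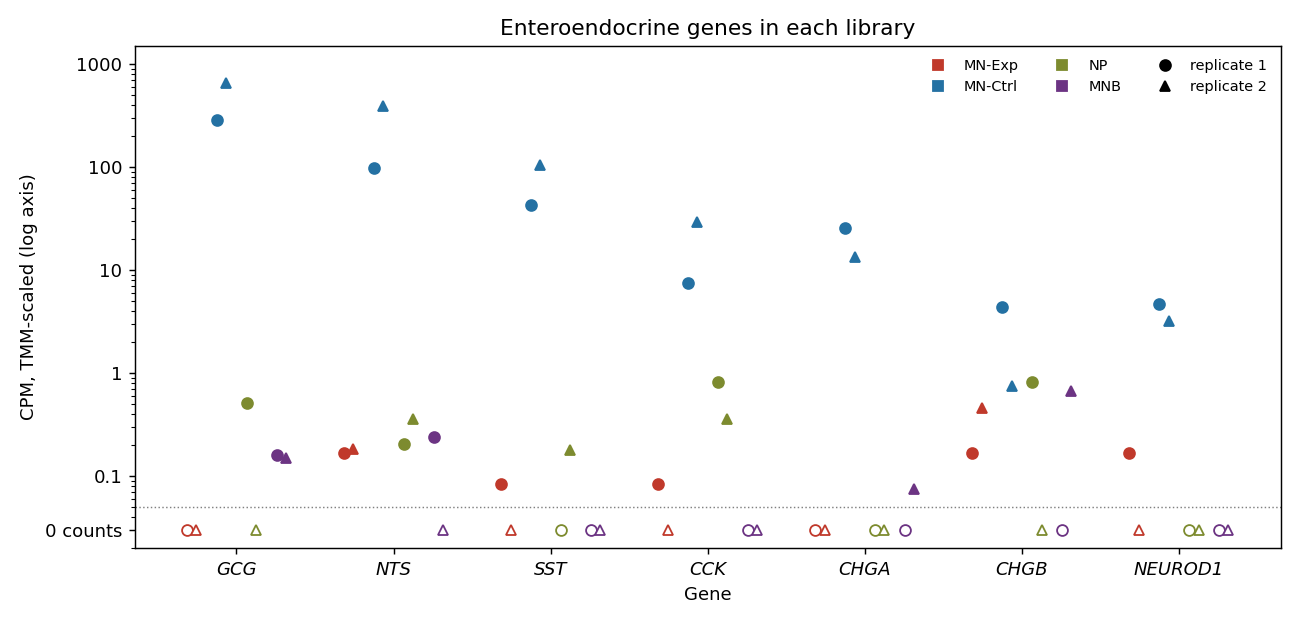
Level of each enteroendocrine gene in each library, in TMM-scaled CPM on a log axis, with circles for replicate 1, triangles for replicate 2 and open symbols below the dotted line for libraries at 0 counts. Only the MN-Ctrl libraries exceed 1 CPM for any gene, and for CHGB their 0.749 and 4.36 CPM reach down to the level of single NP and MNB libraries.

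Among the hormones, GCG encodes proglucagon, the precursor that L cells cut into glucagon-like peptides acting on insulin release and gut growth. It lies on chromosome 15, from 68800557 to 68810268, in the RefSeq annotation of Sscrofa11.1, the build used for all positions below. GCG had 0 counts in both MN-Exp libraries, 285 and 657 CPM in MN-Ctrl, 0.509 and 0 CPM in NP, and 0.162 and 0.149 CPM in MNB. The control neobladder thus stood apart from every other library, and the NP and MNB values rested on 5 counts or fewer per library. Against a limit of 3 counts over the MN-Exp libraries, GCG was at least 3174-fold lower in MN-Exp than in MN-Ctrl (edgeR quasi-likelihood test, adjusted p = 9.01e-05).

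Neurotensin, encoded by NTS on chromosome 5 from 96261299 to 96272947, is a peptide of ileal N cells that slows upper gut motility and promotes fat uptake. NTS had 0.170 and 0.185 CPM in MN-Exp, 98.5 and 395 CPM in MN-Ctrl, 0.204 and 0.356 CPM in NP, and 0.242 and 0 CPM in MNB. It was the only hormone of the set with counts in both MN-Exp libraries, at 2 counts in each. The log2 fold change of MN-Exp over MN-Ctrl was -10.35 (SE 0.997, adjusted p = 0.000102).

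Somatostatin (SST, chromosome 13, 125337560 to 125338742) is the D cell peptide that restrains other hormone cells. SST had 0.0848 and 0 CPM in MN-Exp, 42.7 and 106 CPM in MN-Ctrl, 0 and 0.178 CPM in NP, and 0 counts in both MNB libraries. The single MN-Exp count set against 957 counts in MN-Ctrl gave a level 1488-fold lower, with a 95% counting interval of 266 to 58846, and the gene was called lower (adjusted p = 0.00015).

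Cholecystokinin (CCK, chromosome 13, 25940674 to 25945879) is the I cell hormone that contracts the gallbladder and signals satiety, and it is a hormone best known from the proximal small intestine. CCK had 0.0848 and 0 CPM in MN-Exp, 7.51 and 29.0 CPM in MN-Ctrl, 0.815 and 0.356 CPM in NP, and 0 counts in both MNB libraries. MN-Ctrl was highest and NP, with 8 and 4 counts, came next without overlapping MN-Exp or MNB. The level in MN-Exp, from 1 count against 224, was 348-fold lower than in MN-Ctrl, with a counting interval of 61.9 to 13820 (adjusted p = 0.00141).

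Of the granins, which pack hormone into dense-core granules and are general markers of endocrine cells, chromogranin A (CHGA, chromosome 7, 114345542 to 114357799) exceeded 1 count in the MN-Ctrl libraries only. CHGA had 0 counts in both MN-Exp libraries, 25.4 and 13.5 CPM in MN-Ctrl, 0 counts in both NP libraries, and 0 and 0.0747 CPM in MNB. It was at least 158-fold lower in MN-Exp than in MN-Ctrl (adjusted p = 0.000646).

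Chromogranin B (CHGB, chromosome 17, 14747282 to 14761995) did not share that separation. CHGB had 0.170 and 0.464 CPM in MN-Exp, 4.36 and 0.749 CPM in MN-Ctrl, 0.815 and 0 CPM in NP, and 0 and 0.672 CPM in MNB. The second MN-Ctrl library, with 4 counts, lay below NP replicate 1 and just above MNB replicate 2. The log2 fold change of MN-Exp over MN-Ctrl was -3.01 (SE 1.62) and was not called (adjusted p = 0.208).

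NEUROD1, on chromosome 15 from 87175629 to 87179953, is a factor that drives the final differentiation of hormone cells. NEUROD1 had 0.170 and 0 CPM in MN-Exp, 4.68 and 3.19 CPM in MN-Ctrl, and 0 counts in all 4 NP and MNB libraries. At 2 counts in MN-Exp against 60 in MN-Ctrl it was 46.7-fold lower, with a counting interval of 12.4 to 394 (adjusted p = 0.0262). Without either MN-Exp library, without either MN-Ctrl library or on library totals alone, NEUROD1 was no longer called, with an adjusted p between 0.0599 and 0.193 in these settings.

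Over the set, 6 of the 7 genes were called lower in MN-Exp than in MN-Ctrl, where 11.3% of the 16549 genes tested were called lower. The median log2 fold change of the 7 was -10.35, or -8.34 with GCG and CHGA set at their bounds, against 0.11 for all genes tested. These 6 genes passed the low-count filter through the MN-Ctrl libraries, the group where they were high, so their count describes the set and is no separate support for a difference. Set against MNB, the same 6 genes were called higher in MN-Ctrl, where 11.2% of all genes were called higher, and against NP the 6 were again called higher, where 21.6% of all genes were called higher, 20.6% lower and 42.3% either way. These comparisons all share the MN-Ctrl libraries. Against MNB, whose CCK, SST and NEUROD1 counts were 0, MN-Ctrl was at least 132-fold, 566-fold and 35.5-fold higher for CCK, SST and NEUROD1, and from pooled counts GCG was 2716-fold higher, with a counting interval of 1060 to 9972, and NTS 1781-fold higher, with an interval of 609 to 8643. CHGB was not called in either comparison (adjusted p = 0.21 against MNB and adjusted p = 0.197 against NP). NEUROD1 lost its call against MNB without MNB replicate 1 (adjusted p = 0.084) and without MNB replicate 2 (adjusted p = 0.0787).

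**Figure D2:**
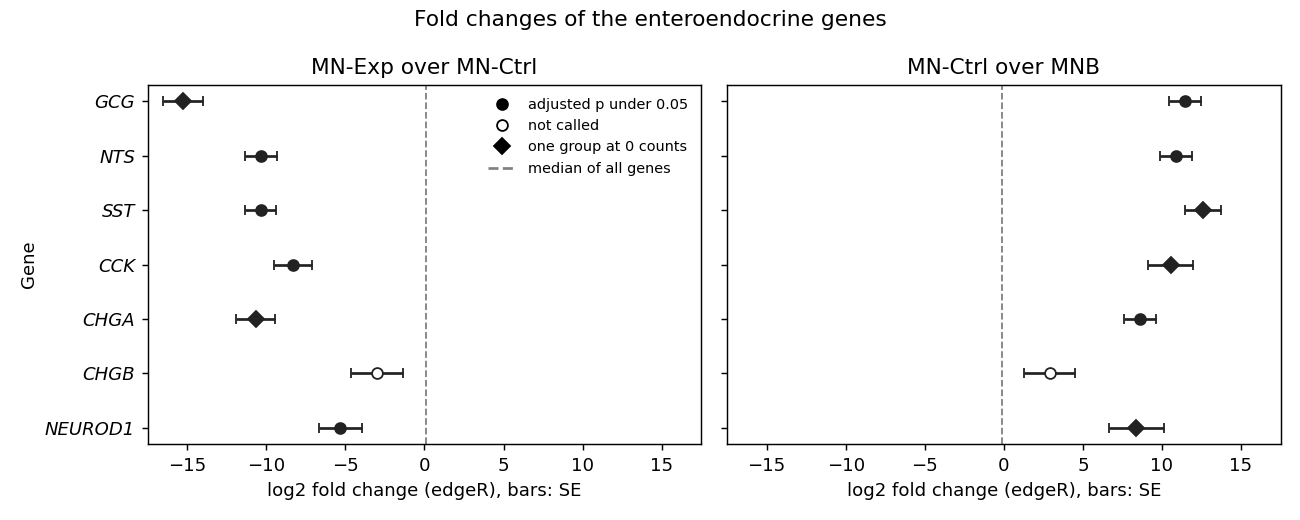
Fitted log2 fold changes with standard errors of the 7 genes in MN-Exp over MN-Ctrl (left) and MN-Ctrl over MNB (right), which share the MN-Ctrl libraries. Diamonds mark genes for which a group was at 0 counts, whose fitted value depends on the prior count, and CHGB, at -3.01 and 2.90, is the gene drawn open as not called in both panels.

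The experimental neobladder was then compared with the normal bladder, the organ it replaces. None of the 7 genes was called between MN-Exp and MNB by edgeR or by DESeq2, and none had an unadjusted p under 0.05, where 0.0967% of all genes were called, 0.0423% higher and 0.0544% lower. The counts were too few to bound small differences. For CHGB, with 7 counts in MN-Exp and 9 in MNB, the ratio was 0.887 with a counting interval of 0.281 to 2.68, and for NTS, with 4 and 3 counts, it was 1.52 with an interval of 0.257 to 10.4. Both intervals pool the libraries of a group and leave out the spread between them. GCG, at 0 counts in MN-Exp and 4 in MNB, had an adjusted p = 0.755.

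Between MN-Exp and NP, the tissue used as the lining, no gene of the set was called by edgeR or by DESeq2, where 24.2% of all genes were called. CCK had an unadjusted p under 0.05, with 1 count in MN-Exp and 12 counts in NP, and its log2 fold change of -3.40 (SE 1.38) had an adjusted p = 0.102. With no low-count filter CCK and GCG were called lower in MN-Exp than in NP (adjusted p = 0.0319 and adjusted p = 0.0447), GCG from 5 counts in a single NP library.

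Between the unoperated tissues, CCK was called higher in NP than in MNB, at least 4.90-fold from 12 counts against 0 (adjusted p = 0.0458), where 9.93% of all genes were called higher. That call rested on 8 and 4 counts. It was lost without NP replicate 1 (adjusted p = 0.156), without NP replicate 2 (adjusted p = 0.0603), without MNB replicate 1 (adjusted p = 0.174) and without MNB replicate 2 (adjusted p = 0.158). The other 6 genes were not called between NP and MNB.

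Genes related to the set were read from lists of neighbouring function, which also hold genes shared with enterocytes, such as SLC5A1 and DPP4. Among the other gut hormones and neuropeptides, 15 of 18 listed genes had a row and 6 passed the low-count filter. Of those 6, 2 were called lower in MN-Exp than in MN-Ctrl, where 11.3% of all genes were, and none was called higher. GIP, the incretin of K cells, had 0.0848 and 0 CPM in MN-Exp, 10.1 and 38.8 CPM in MN-Ctrl and 0 counts in NP and MNB (adjusted p = 0.00146). GAST, which encodes gastrin, the acid-stimulating hormone, had 0 counts in MN-Exp, 9.04 and 54.1 CPM in MN-Ctrl, 0 counts in NP, and 0.323 and 0 CPM in MNB. GAST was called lower in MN-Exp by edgeR (adjusted p = 0.00284) and not by DESeq2 (adjusted p = 0.0703). Like the called genes of the set, GIP and GAST passed the low-count filter through the MN-Ctrl libraries. So did ATOH1, SCGN, SYT13, PCSK1, SCG2 and SSTR1 in the lists below. The counts of calls therefore describe these lists and are no separate support for a difference. Motilin (MLN), a peptide of interdigestive motility, averaged 0.135 ± 0.0712 CPM in MN-Exp and 1.38 ± 1.49 CPM in MN-Ctrl (SD, n = 2 each, adjusted p = 0.211). Neuromedin U (NMU), a peptide that contracts smooth muscle, averaged 2.03 ± 0.121 CPM in MN-Exp and 0.429 ± 0.453 CPM in MN-Ctrl (SD, n = 2 each, adjusted p = 0.158). Secretin (SCT) had 0 counts in all 8 libraries.

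Of 19 lineage transcription factors, 18 had a row and 9 passed the filter, with 2 called lower and 1 higher in MN-Exp than in MN-Ctrl, where 11.3% of all genes were called lower and 10.4% higher. The single higher call is about that share. ATOH1, which commits crypt progenitors to the secretory lineage, had 438 and 145 counts in MN-Ctrl and 0 counts in the other 6 libraries. It was at least 302-fold lower in MN-Exp (edgeR adjusted p = 0.000342, and adjusted p = 0.0644 by DESeq2). The carbohydrate-response factor MLXIPL averaged 0.0927 ± 0.131 CPM in MN-Exp and 16.0 ± 3.28 CPM in MN-Ctrl (SD, n = 2 each, adjusted p = 0.000837). FOXA1, a factor of many endoderm epithelia including urothelium, went the other way, at 275 and 364 CPM in MN-Exp against 41.9 and 5.62 CPM in MN-Ctrl (adjusted p = 0.007). NEUROG3, the factor that specifies the endocrine lineage, had 22 and 7 counts in MN-Ctrl and 0 counts in the other 6 libraries. It was below the filter, was not tested, and is named after its values were seen.

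Of 20 genes of prohormone processing and the secretory granule, 19 had a row, 14 passed the filter, 4 were called lower in MN-Exp than in MN-Ctrl and none higher, against 11.3% and 10.4% of all genes. Secretagogin (SCGN), a calcium sensor of endocrine cells, had 0 counts in MN-Exp and 4.36 and 8.24 CPM in MN-Ctrl (adjusted p = 0.00576). PCSK1, the convertase that frees glucagon-like peptides from proglucagon, had 0.509 and 0 CPM in MN-Exp and 9.58 and 2.81 CPM in MN-Ctrl (adjusted p = 0.0389). The granule protein secretogranin II (SCG2) had 0.254 and 0.371 CPM in MN-Exp and 7.30 and 2.44 CPM in MN-Ctrl (adjusted p = 0.047), and the synaptotagmin SYT13 had 0.0848 and 0 CPM against 10.7 and 3.19 CPM (adjusted p = 0.0138). On library totals alone PCSK1 and SCG2 were not called. PCSK1, SCG2 and SYT13 each lost their call without MN-Exp replicate 2 and without MN-Ctrl replicate 1, and SCG2 and SYT13 also without MN-Exp replicate 1, with adjusted p up to 0.244 for PCSK1, 0.239 for SCG2 and 0.108 for SYT13. Carboxypeptidase E (CPE), which trims precursors in many secretory cells, averaged 13.1 ± 0.983 CPM in MN-Exp and 9.52 ± 2.86 CPM in MN-Ctrl, against 689 ± 128 CPM in NP (SD, n = 2 each).

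Serotonin is made in enterochromaffin cells, and TPH1, its rate-limiting enzyme, was not analysed here. Of 12 other genes of serotonin synthesis and handling, 11 had a row and 9 passed the filter. Of those 9, 6 were called lower in MN-Exp than in MN-Ctrl and none higher, against 11.3% and 10.4% of all genes. Among the 6, SLC18A1 and HTR4 lost their call on library totals alone and in some settings with a library left out. SLC6A4, the serotonin reuptake transporter, had 0.424 and 0.835 CPM in MN-Exp, 42.0 and 6.37 CPM in MN-Ctrl, 15.3 and 37.4 CPM in NP and 0.404 and 0.374 CPM in MNB (adjusted p = 0.00318 for MN-Exp over MN-Ctrl). MAOB, a monoamine oxidase, had 16.4 and 15.1 CPM in MN-Exp against 416 and 117 CPM in MN-Ctrl (adjusted p = 0.00117). The pterin enzymes GCH1 and QDPR, which supply and recycle the hydroxylase cofactor, were also called lower (adjusted p = 0.00564 and adjusted p = 0.00328), GCH1 not on library totals alone or without MN-Exp replicate 1 (adjusted p up to 0.0792).

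Of 16 genes of nutrient and bile acid sensing, 13 had a row and 9 passed the filter, with 1 called lower and 3 higher in MN-Exp than in MN-Ctrl, against 11.3% and 10.4% of all genes, so the lower call is about the share over all genes. The glucose transporter SLC5A1, shared with enterocytes, had 92.9 and 25.8 CPM in MN-Exp against 2212 and 580 CPM in MN-Ctrl (adjusted p = 0.00339). The irritant channel TRPA1 had 62.4 and 64.6 CPM against 26.0 and 12.2 CPM (adjusted p = 0.0149), and was not called without either MN-Exp library or with the 2 groups alone (adjusted p up to 0.0836). Of 23 hormone receptors and peptidases, 19 had a row and 10 passed the filter, with 4 called lower and none higher, against the same shares of all genes. Among the 4, GHSR lost its call on library totals alone, with the 2 groups alone and in some settings with a library left out. DPP4, the peptidase that inactivates incretins and lies on the enterocyte brush border, had 8.73 and 6.49 CPM in MN-Exp against 302 and 83.9 CPM in MN-Ctrl (adjusted p = 0.00169). The somatostatin receptor SSTR1 had 0.254 and 0.0927 CPM in MN-Exp, 13.5 and 3.93 CPM in MN-Ctrl and 0 counts in NP and MNB (adjusted p = 0.00922), and was not called without MN-Exp replicate 2 or without MN-Ctrl replicate 1 (adjusted p up to 0.106).

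**Figure D3:**
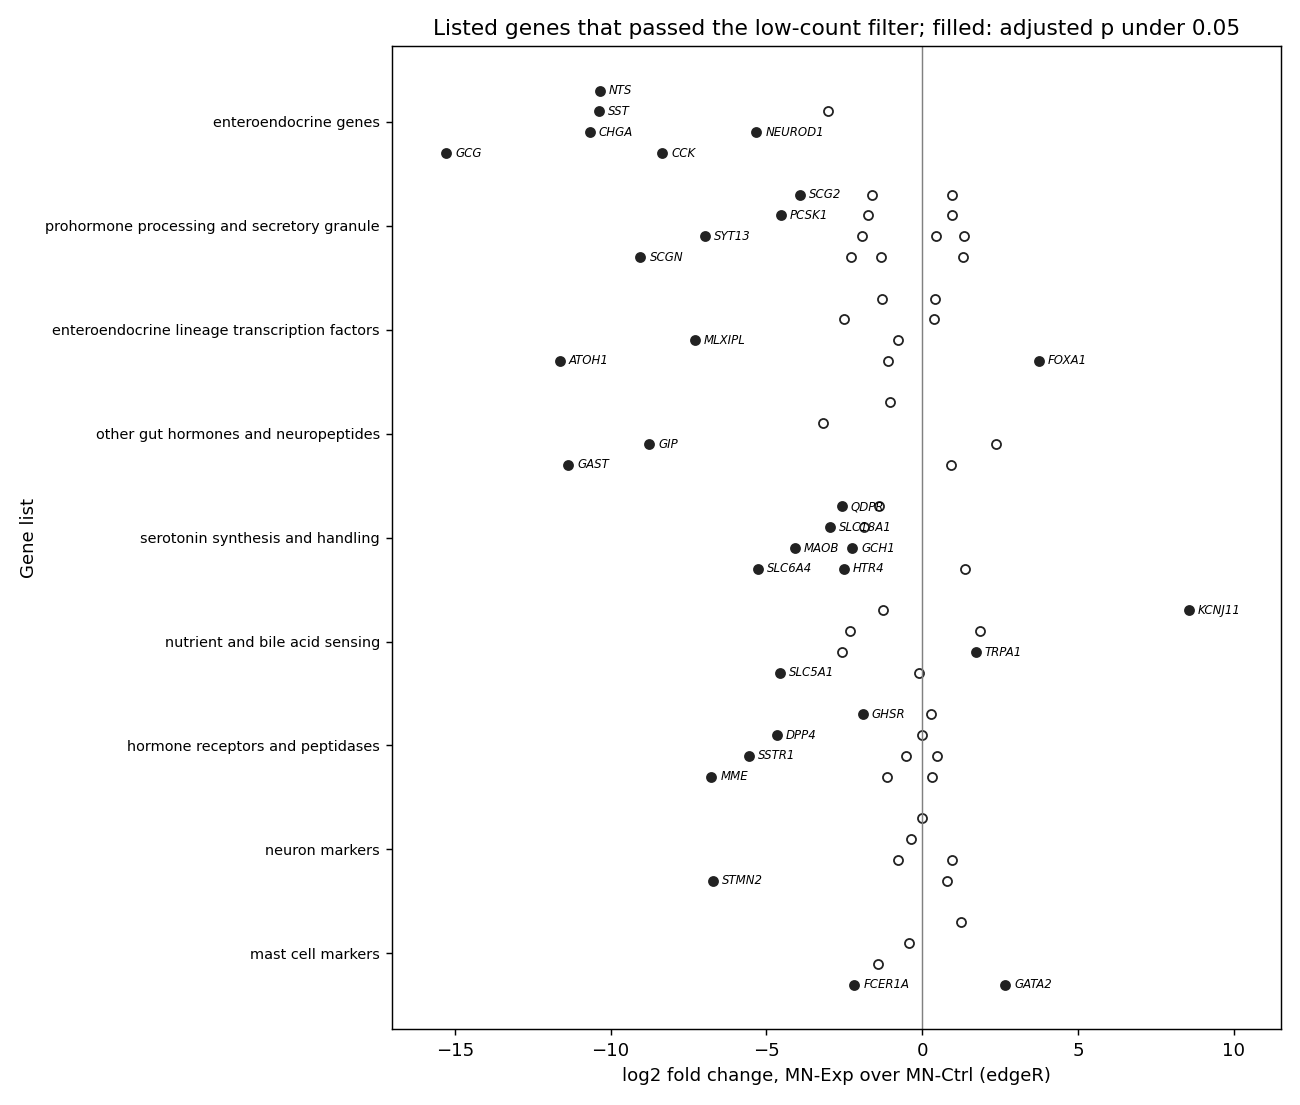
Fitted log2 fold change of MN-Exp over MN-Ctrl for the listed genes that passed the low-count filter, in rows by list for 9 lists, with filled and named points where the adjusted p was under 0.05. GCG, ATOH1 and GAST lie farthest to the left, and each had 0 counts in MN-Exp, so its fitted value depends on the prior count. FOXA1, KCNJ11 and TRPA1 are the filled points drawn for the hormone-related lists to the right of 0.

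Neurons and mast cells also express members of these lists, CHGB and SLC6A4 among them. The 13 neuron markers with a row summed to 10.002 and 12.1 CPM in MN-Exp, 17.9 and 21.2 CPM in MN-Ctrl, 28.0 and 29.7 CPM in NP and 13.6 and 9.79 CPM in MNB, with the defining marker ELAVL3 at 0 counts in every library. Of the 6 neuron markers tested, 1, STMN2, was called lower in MN-Exp than in MN-Ctrl, at 0.0848 and 0 CPM against 1.85 and 9.93 CPM (adjusted p = 0.0316). Over all genes, 11.3% were called lower, so 1 call of 6 is near that share. STMN2 was not called on library totals alone, without either MN-Exp library or without MN-Ctrl replicate 2 (adjusted p up to 0.185). The 5 mast cell markers with a row summed to 174 and 170 CPM in MN-Exp, 168 and 191 CPM in MN-Ctrl, 136 and 136 CPM in NP and 148 and 179 CPM in MNB. Both neuron sums of MN-Ctrl exceeded both of MN-Exp and lay below both of NP, and the mast cell sums of MN-Exp and MN-Ctrl overlapped, with GATA2 called higher and FCER1A lower in MN-Exp. None of the 5 glia markers tested was called between MN-Exp and MN-Ctrl, and of 7 pan-epithelial markers ESRP1 was called higher and KRT8 lower in MN-Exp (adjusted p = 0.0347 and adjusted p = 0.0496). For these mast cell, glia and pan-epithelial markers the shares over all genes were 10.4% called higher and 11.3% lower. ESRP1 and KRT8 both lost their call without either MN-Exp library and with the 2 groups alone, and KRT8 also on library totals alone (adjusted p up to 0.2004 for ESRP1 and 0.274 for KRT8). FCER1A lost its call on library totals alone and without MN-Exp replicate 2 (adjusted p up to 0.152). The part of these cell types in the hormone gene differences was not tested.

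The 2 control libraries did not carry the same hormone profile. On scaled CPM, replicate 2 was higher than replicate 1 for the 4 peptide precursors, 4.01-fold for NTS, 3.87-fold for CCK, 2.48-fold for SST and 2.31-fold for GCG. In the same libraries CHGA was 0.532-fold, CHGB 0.172-fold and NEUROD1 0.680-fold of replicate 1, and the counting interval of NEUROD1, 0.364 to 1.22, includes equality. On library totals alone the precursors were still higher in replicate 2, by 1.24-fold for GCG to 2.15-fold for NTS, and CHGA, CHGB and NEUROD1 lower, at 0.285-fold, 0.0922-fold and 0.364-fold.

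Shares within the set do not depend on the scaling between libraries. NTS made up 32.8% of the set's counts in replicate 2 (exact 95% interval 31.6 to 33.9%) and 21.1% in replicate 1 (19.9 to 22.3%), while GCG made up 54.6% (53.4 to 55.8%) and 60.8% (59.4 to 62.3%). CHGA made up 1.12% in replicate 2 (0.877 to 1.41%) and 5.42% in replicate 1 (4.77 to 6.14%). SST held 8.79% (8.11 to 9.51%) and 9.12% (8.28 to 10.03%), intervals that overlap. These intervals cover counting error only, and with 1 library on each side there is no test between them. Counts of GCG for each CHGA count were 48.7 in replicate 2 and 11.2 in replicate 1. Set against the epithelial marker EPCAM, chosen after its values were seen, CHGA did not differ between the libraries as GCG did. Counts of CHGA for each EPCAM count were 0.0342 in replicate 2 and 0.0340 in replicate 1, and those of GCG were 1.67 and 0.381.

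Genes of the neighbouring lists also differed between the control libraries. The hormone precursors GAST and GIP were 5.99-fold and 3.83-fold higher in replicate 2 than in replicate 1 on scaled CPM. The factor ATOH1 was at 0.570-fold, the convertase PCSK1 at 0.293-fold, SCG2 at 0.334-fold and SYT13 at 0.298-fold of replicate 1. In the same list of processing and granule genes SCGN was 1.89-fold higher in replicate 2, with a counting interval of 1.21 to 2.98, and SCG5 2.66-fold higher, with an interval of 2.01 to 3.53, and 42.9% of the 14 genes tested were higher in replicate 2. The median log2 difference of replicate 2 minus replicate 1 was 1.21 over the 7 genes of the set and 1.78 over the 6 other hormones tested, against -1.07 over the 9 lineage factors, -0.37 over the 14 processing and granule genes and -0.06 over all genes tested. It was 1.64 over the 7 goblet cell markers and -0.62 over the 9 enterocyte markers. Over the 7 pan-epithelial markers it was -0.92, and 14.3% of these were higher in replicate 2. Replicate 2 minus replicate 1 also varied with the genomic span of a gene across genes (Spearman rho = -0.319 over 11655 genes in MN-Ctrl, against -0.118 in MN-Exp, 0.0108 in NP and -0.0827 in MNB), where genes are not independent replicates, and the part of gene span or RNA quality in the hormone profile was not tested.

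**Figure D4:**
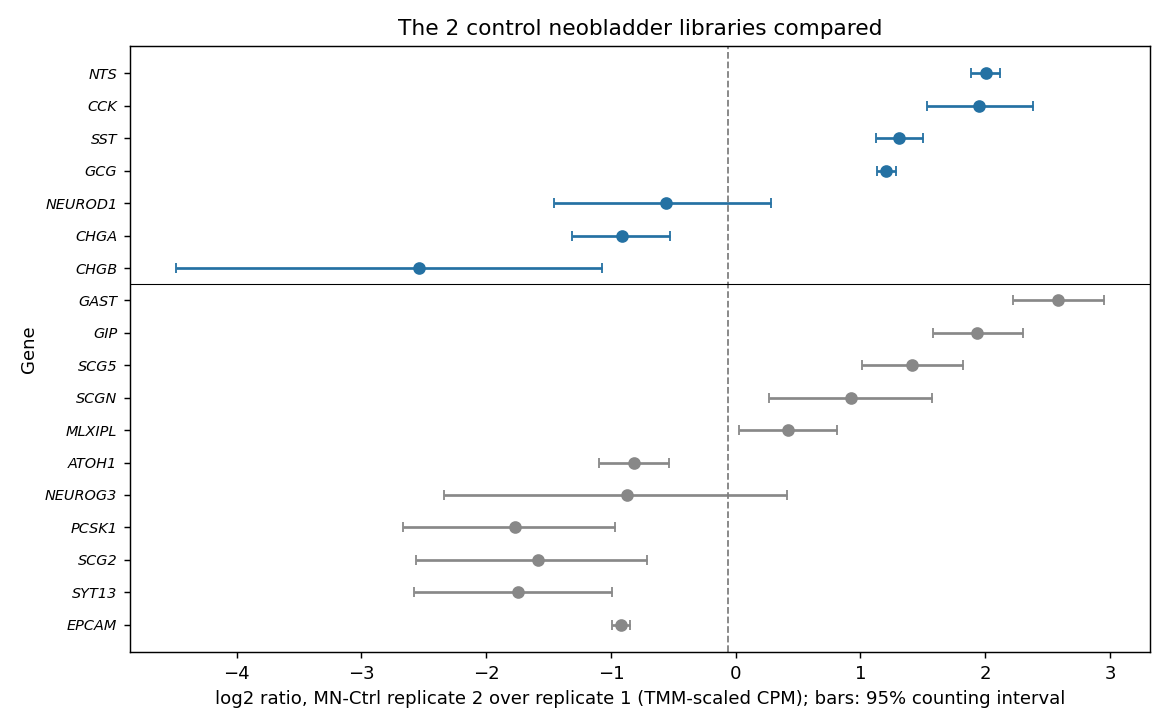
Ratio of MN-Ctrl replicate 2 over replicate 1 in TMM-scaled CPM, on a log2 axis, with bars for the 95% counting interval and a dashed line at the median of all genes. Above the line, the hormone precursors NTS, CCK, SST and GCG lie to the right and CHGA and CHGB to the left. Below it are genes of the neighbouring lists, of which SCG5, NEUROG3 and EPCAM were chosen after their values were seen.

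The genes whose pattern over the 8 libraries was most like that of the set were CDX2, MS4A12, TFF2, CCL25, PPP1R1B and AGMAT. Each correlated with the set's mean log2 CPM at Pearson r between 0.997 and 0.999, a description in which the 2 MN-Ctrl libraries are set against 6 libraries near 0. CDX2, the homeobox factor of intestinal identity, had 50.6 and 87.5 CPM in MN-Ctrl and at most 2 counts in any other library. The trefoil peptide TFF2 averaged 0.216 ± 0.174 CPM in MN-Exp and 871 ± 525 CPM in MN-Ctrl (SD, n = 2 each). Within the set the correlation with its own mean ran from 0.697 for CHGB and 0.957 for CCK to 0.995 for GCG.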

How the data were processed

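The authors deposited raw counts per Ensembl gene for 8 libraries. Per the submitters' processing notes, Trim Galore, HISAT2 and HTSeq 0.11.1 were used with the Sscrofa11.1 build. Settings, strand use and annotation release are not given in the sources used here. Smart-seq2 gave the complementary DNA, per the labels. The values are whole and their totals differ. Symbols were matched by Ensembl identifier (15029 of 31907), positions by symbol to RefSeq.

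Genes were kept by filterByExpr (16549), scaled by TMM and fitted over all 8 libraries with edgeR 4.0.16 in R 4.3.3 (robust quasi-likelihood, 4 residual degrees of freedom, biological coefficient of variation 0.382). Each of 6 comparisons was adjusted by Benjamini-Hochberg over all genes tested and called under 0.05. SE is the fold change over the root of F. Bounds set a group at 0 to 3 counts over its libraries, and counting ratios pool the libraries. Counting intervals cover counting error only and leave out the spread between libraries. Exon lengths were not used, so levels are compared within a gene, and the planned per-length values were not made. No sequences were used.

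All 10 members and every gene of 15 further lists were eligible by list. Up to 4 genes a list with the smallest p in MN-Exp over MN-Ctrl, the gene with the highest mean, and the 6 genes most like the set were named. Members and lists were chosen with earlier results of these data known. Alternatives were DESeq2 1.42.0, other scalings, no filter, 2 groups alone, a replicate block and each library left out. The tests were tested on simulated data. Some listed genes are counted with their list and are not reported or drawn singly here.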

Additional observations from a re-analysis of the deposited data

How the results depend on the processing

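The number of genes of the set called was 6 in MN-Exp over MN-Ctrl, and 5 or 6 in every alternative. It was 6 in MN-Ctrl over MNB, and 5 or 6 in every alternative, and 6 in MN-Ctrl over NP in every alternative. It was 0 in MN-Exp over MNB throughout. In MN-Exp over NP it was 0, and 2 with no low-count filter. In NP over MNB it was 1, and 0 with the replicate block and without each NP or MNB library in turn. With the 2 groups alone, no gene of the set passed the filter in MN-Exp over MNB, MN-Exp over NP or NP over MNB, so no value was had. GCG, NTS, SST, CCK and CHGA kept their calls in MN-Exp over MN-Ctrl, MN-Ctrl over MNB and MN-Ctrl over NP under all 10 alternatives.

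Scaling moved the balance of calls over all genes. On library totals alone the median over all genes in MN-Exp over MN-Ctrl was 0.89 (log2) in place of 0.11, and 77.1% of calls were higher in place of 48.0%, while NTS stayed at -9.02 (log2) or lower in every alternative. In MN-Ctrl over MNB 18.7% of calls were higher on library totals, in place of 50.4%, and in MN-Ctrl over NP 24.9% in place of 51.2%.

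Counts over all genes moved by more than 1.5 times as follows. With the 2 groups alone they were 2340 in MN-Exp over MN-Ctrl (3584 as reported), 453 in MN-Exp over MNB (16), 6215 in MN-Exp over NP (3998), 2294 in MN-Ctrl over MNB (3686) and 5803 in NP over MNB (3486). MN-Exp over MNB had 200 by DESeq2, 352 with no filter and 5 on library totals. Leaving out a library gave 1396 to 6358 in MN-Exp over MN-Ctrl, 3 to 7 in MN-Exp over MNB, 1762 to 2394 in MN-Exp over NP, 1442 to 6485 in MN-Ctrl over MNB and 1343 to 1989 in NP over MNB. The replicate block, for which same-numbered libraries of different groups had deviations correlated at -0.0795 to 0.0911, changed no call of the set other than CCK in NP over MNB (adjusted p = 0.0515). Among other listed genes the block ended the calls of SLC18A1, AGR2, KRT8 and SCG2 in MN-Exp over MN-Ctrl (adjusted p = 0.0574 to 0.0693) and of ESRP1 and SCG5 in MN-Ctrl over MNB (adjusted p = 0.0529 and 0.0587). Of 56 other listed genes called in MN-Exp over MN-Ctrl, 35 kept their call under every alternative. The cause of these changes was not tested. In MN-Exp, NP and MNB, depth limits the set to ratios with wide counting intervals.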

Other observations

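Tuft cells, the chemosensory cells that share the gut lining with enteroendocrine cells, were described by 6 markers with a row. Of these 6, 3 were called higher and 2 lower in MN-Exp than in MN-Ctrl, where 10.4% of all genes were called higher and 11.3% lower. POU2F3, the factor that defines tuft cells, had 10.4 and 7.97 CPM in MN-Exp, 1.09 and 0.937 CPM in MN-Ctrl, 0 counts in NP, and 13.1 and 20.2 CPM in MNB (adjusted p = 0.0042 for MN-Exp over MN-Ctrl). TRPM5, a taste-transduction channel, and DCLK1, a kinase of tuft cells and neurons, were also called higher in MN-Exp (adjusted p = 0.0133 and adjusted p = 0.0161). Both calls were lost without MN-Exp replicate 2, and that of DCLK1 also without MN-Exp replicate 1 or with the 2 groups alone. GFI1B was called lower in MN-Exp (adjusted p = 0.000749). DCLK1 averaged 12.4 CPM in MN-Exp, 18.2 CPM in MNB and 52.0 CPM in NP. TRPM5 averaged 3.79 CPM in MN-Exp, 1.34 CPM in MNB and 1.41 CPM in NP.

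In the list of processing and granule genes, 2 of the 14 tested were called higher in NP than in MNB (CPE and PCSK1N) and 2 lower (RAB3B and SNAP25), where 21.1% of all genes were called either way. Of the 19 genes with a row, 7 were at 0 counts in both NP libraries, PCSK1, SCG2 and SCGN among them. PAM and PCSK1N were chosen after their values were seen. The amidating enzyme PAM, which finishes many peptide hormones, had 131 and 137 CPM in MN-Exp, 87.8 and 20.2 CPM in MN-Ctrl, 453 and 288 CPM in NP, and 114 and 144 CPM in MNB, and was not called between NP and MNB (adjusted p = 0.0943). PCSK1N, a convertase inhibitor, had 31.4 and 24.1 CPM in NP and 0.646 and 1.94 CPM in MNB, and was called higher in NP than in MNB (adjusted p = 0.000644).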
